A study of Mus musculus with 8 samples.

Results

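Kallikreins are secreted serine proteases that shed the outer layer of the epidermis. Of the 18901 genes in the deposited table of mouse skin, 10 were chosen by their symbols and are described here, namely 8 epidermal kallikreins (Klk5, Klk6, Klk7, Klk8, Klk10, Klk11, Klk13 and Klk14), the inhibitor gene Spink5 and the matriptase gene St14. All 10 had enough reads to be tested. The libraries came from the injected cheek of 4 TBX20fl/fl;K14-Cre mice, called cKO mice here for the conditional knockout, and 4 TBX20fl/fl mice as controls. Both genotypes carry floxed TBX20 alleles, and the controls lack Cre. In cKO mice, Cre driven by the keratin 14 promoter removes exons 2 and 3 of TBX20, which codes for a T-box transcription factor, in keratinocytes, while the other cells of the skin keep both exons. All mice were 7-week-old females that received 10 µg of brain natriuretic peptide (BNP), an itch-evoking peptide, into the cheek, were recorded for 30 min and were euthanised 5 h later. Each mouse gave 1 library, there was no uninjected group, and the comparison asks how these genes differed between the genotypes after BNP.

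In the epidermis, corneocytes are held together by corneodesmosomes built from corneodesmosin, desmoglein 1 and desmocollin 1. KLK5 and KLK7, a trypsin-like and a chymotrypsin-like protease, cut these proteins so that the cells can be shed. KLK5 activates its own precursor and those of KLK7 and KLK14. LEKTI, the product of Spink5, holds KLK5, KLK7 and KLK14 in check, and its loss causes Netherton syndrome, a disease of excessive shedding and itch. Matriptase, the product of St14, is a membrane-bound protease that can start this cascade. KLK5 and KLK14 also cleave PAR2, the product of F2rl1, a receptor linked to itch.

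The 8 kallikreins lie in 1 cluster on the plus strand of chromosome 7 (GRCm38), from the start of Klk14 at 43680880 to the end of Klk5 at 43851181 in the deposited table. Because the deleted gene codes for a T-box factor and the kallikreins are neighbours, the sequence before their starts is shown. RefSeq (GRCm38.p6) gave 10 windows of 300 bases, from 250 before to 50 after a start, for the 8 kallikreins. The 100 bases before a start are printed 5′ to 3′ for Klk7, the most abundant member, for Klk6, the abundant kallikrein with the largest difference between the genotypes (the second of its 2 starts), and for the pair of kallikreins that hold the letters TTAAAA in the last 50 bases before the start, which are in capitals.
Klk7 (chr7:43811194-43811293): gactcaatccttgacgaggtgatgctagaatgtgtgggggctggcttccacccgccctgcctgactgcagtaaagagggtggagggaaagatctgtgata
Klk6 (chr7:43825350-43825449): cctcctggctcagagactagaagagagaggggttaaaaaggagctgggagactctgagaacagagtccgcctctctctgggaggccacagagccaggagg
Klk8 (chr7:43797477-43797576): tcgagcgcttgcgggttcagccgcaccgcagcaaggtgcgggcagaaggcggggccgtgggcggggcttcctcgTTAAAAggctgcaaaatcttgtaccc
Klk10 (chr7:43780954-43781053): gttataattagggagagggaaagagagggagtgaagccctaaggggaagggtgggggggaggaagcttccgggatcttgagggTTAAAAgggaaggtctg
The T-box letters AGGTGTGA were searched on both strands and were in 0 of the 10 windows, against 1.28% of all 32851 promoter windows. The shorter core GGTGTGA, which the first motif contains, was in 1 of the 10, against 3.98% of all windows. That match was in the second window of Klk11, beginning 4 bases after the start, and is in capitals.
Klk11: gcttggggattGGTGTGAgaaccaggagg
The TATA box letters TATAAA, also searched on both strands, were in 0 of the 10 windows, against 13.6% of all windows. TTAAAA, chosen after these sequences were seen and searched on the forward strand only, was in the last 50 bases before the start in 2 of the 10, against 1.78% of all windows. A match here describes letters in a window, and no binding was measured in these mice.

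Totals of the deposited estimated counts were 16056282 to 19880654 per mouse. Counts of Tbx20 were 0 to 2.09 in cKO mice and 0 to 3.01 in controls, so its deletion was not detectable at this depth. The library of control replicate 2 stood apart. It had the lowest total, a TMM scaling factor of 0.735 against 1.01 to 1.07 in the other mice, and low values for long transcripts (Spearman correlation of its deviation with transcript length −0.781, across genes). This correlation was 0.060, −0.558 and 0.039 in control replicates 1, 3 and 4, and 0.268, −0.067, 0.447 and 0.436 in cKO replicates 1 to 4. The length trend was thus not confined to 1 library and leaned with genotype, with overlap. Lengths derived from the table were 894 to 1874 bases for the kallikreins, 3166 for St14 and 4716 for Spink5. Values without control replicate 2 are therefore given beside the members they move. Leaving it out does not remove the trend in the other mice. Markers of basal, suprabasal and granular keratinocytes were present in every library, and their summed FPKM overlapped between the genotypes. The median log2 fold change was 0.19, 0.05 and 0.30 for these lists. Of the 4 granular genes, 1 was below 0 and 1 had an unadjusted p under 0.05 in edgeR. Of 4 fibroblast genes, 2 had an unadjusted p under 0.05 in edgeR (median log2 fold change 0.12). Summed FPKM of 9 hair follicle genes was 1744 in cKO replicate 2 and 14.5 to 240.5 in the other 7 mice, and the median log2 fold change of the 9 was 2.75, with 0 below 0 and 6 at an unadjusted p under 0.05 in edgeR. Summed FPKM of 4 neutrophil genes was 97.4 to 274.4 in cKO mice and 269.3 to 940.4 in controls, and all 4 genes had a log2 fold change below 0. The part of any of these in the results below was not tested. In whole skin, fewer cells of a type and less RNA per cell cannot be told apart.

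When edgeR's quasi-likelihood p-values were adjusted over 17124 genes by the Benjamini-Hochberg method, 0 of the 10 genes had an adjusted p under 0.05, as did 0% of all genes (smallest adjusted p = 0.498). DESeq2's Wald test also called 0 of the 10, with 10 calls over all genes, and its smallest adjusted p among the 10 was 0.126, for Klk6. At an unadjusted p under 0.05 in edgeR, Klk6 and Klk14 were lower in cKO mice, 2 of 10 against 5.91% of all genes tested. Klk14, with 8 counts summed over cKO mice and 24 over controls, passed the filter of 10 counts only through the controls, which leaves Klk6 alone to be read against that share. St14 was the 1 of 10 that was higher, against 2.45% of all genes. In FPKM (fragments scaled by transcript length and by mapped reads), Klk14 was the 1 of 10 with every cKO mouse below every control, against 1.92% of 15968 genes, and St14 the 1 of 10 with every such mouse above, against 5.45%. Klk14 entered this count, which needs a mean FPKM of 0.1, only through the controls, so nothing is read from its place in it. The median log2 fold change (cKO over control) was −0.29 for the 10 genes and 0.03 for all genes tested, and 9 of the 10 lay below 0 against 47.5% of all genes. Klk14, tested only through its counts in controls, is among the 10 and the 9. Of these 9, Klk11 and Klk13 changed sign under other scalings (0.07 and 0.09 with the length trend removed), and the median of all genes then moved to −0.15 while that of the 10 was −0.10, so that the contrast of the medians turned. Without control replicate 2 the medians were −0.15 for the 10 and 0.01 for all genes.

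**Figure D1:**
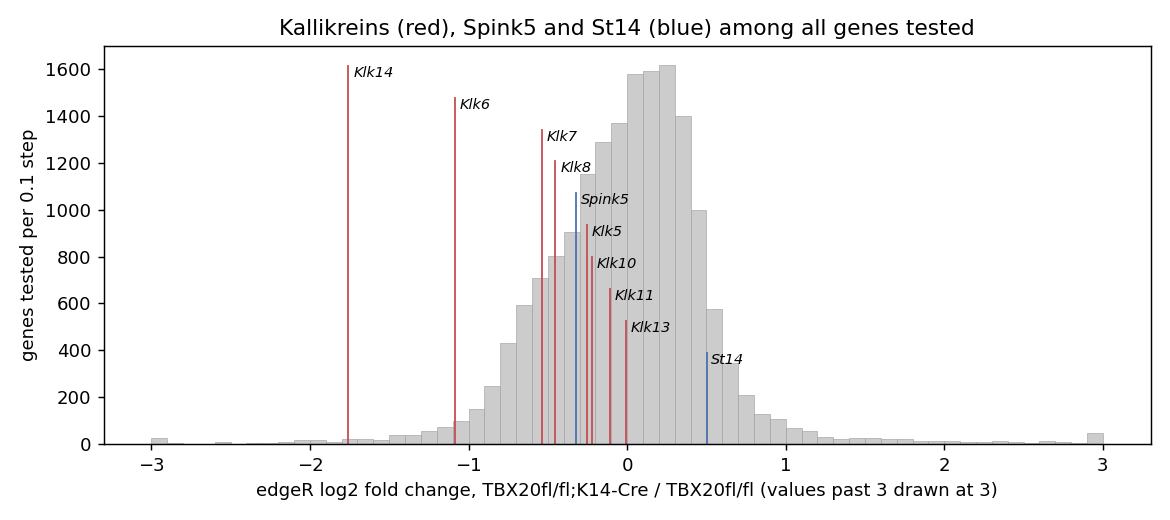
The edgeR log2 fold changes of all 17124 genes tested (grey bars, genes per step of 0.1 on the horizontal axis) with the 10 genes as vertical lines, kallikreins in red and Spink5 and St14 in blue. The lines reach from −1.76 (Klk14) to 0.50 (St14), and their heights only separate the names.

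The 10 genes spanned more than 3 orders of magnitude in FPKM, which is per transcript length and so can be compared between genes. Klk7 led with a mean of 372.9 ± 76.7 (SD, n = 8 mice, as for the other levels in this paragraph) and ranked 236 of all genes in the table. It was followed by Spink5 at 187.3 ± 30.1, Klk6 at 110.0 ± 45.4 and Klk10 at 101.7 ± 9.29. Klk8 at 64.8 ± 13.8 and Klk5 at 43.8 ± 4.41 came next, then St14 at 15.0 ± 4.78 and Klk11 at 14.4 ± 1.02, and Klk13 at 3.09 ± 1.37 and Klk14 at 0.170 ± 0.118 were the lowest. Some neighbours were not separated over all mice. Klk6 exceeded Klk10 in 0 of 4 cKO mice and 3 of 4 controls, and St14 exceeded Klk11 in 4 of 4 cKO mice and 1 of 4 controls. The order of these neighbours thus differed between the genotypes in most mice. Spink5 exceeded Klk6 in 4 of 4 cKO mice and 3 of 4 controls. Every other neighbour kept its place in all 8 mice. Over all mice, Klk11 varied least (coefficient of variation 7.11%), and Klk10 and Klk5 also varied by about 10% (9.14% and 10.1%), whereas Klk6, Klk13 and Klk14 varied by 41.3%, 44.2% and 69.3%.

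**Figure D2:**
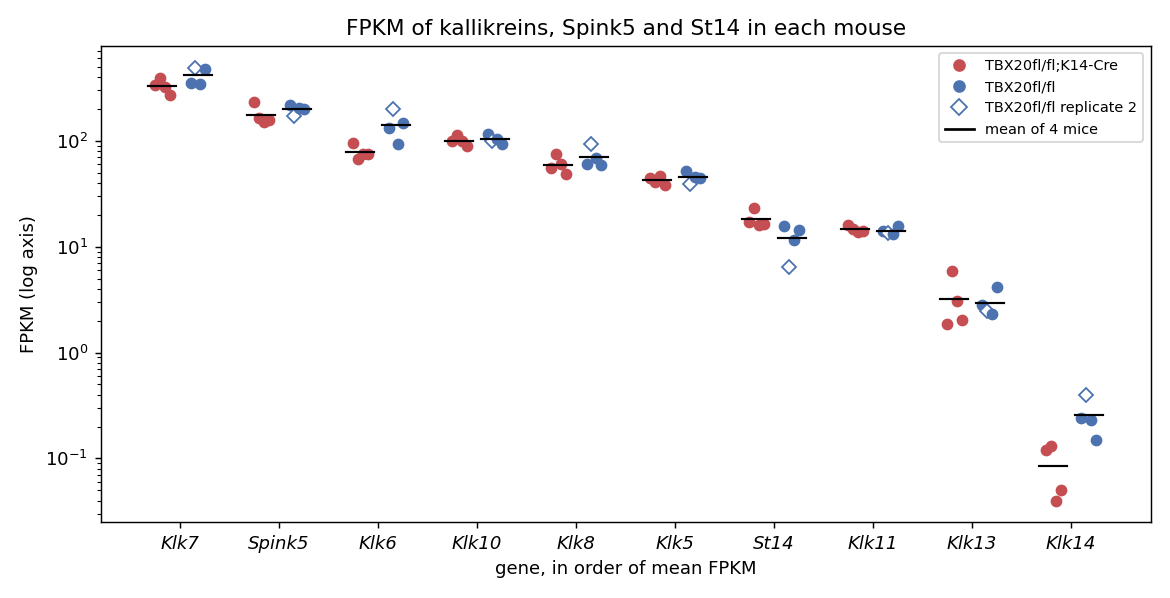
FPKM of each gene (log axis) in each of 4 cKO mice (red) and 4 control mice (blue, with replicate 2 as open diamonds), with a black line at the mean of each genotype. Points of Klk14 and St14 do not overlap between the genotypes, and those of Klk6, Klk7 and Spink5 overlap through 1 cKO mouse each.

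Among the proteases that cut corneodesmosomes, Klk5, the trypsin-like initiator, had FPKM of 44.8, 40.5, 46.1 and 38.3 in cKO replicates 1 to 4 and 51.9, 39.3, 45.7 and 44.1 in control replicates 1 to 4. The groups overlapped throughout, with 2 of the 4 same-numbered pairs in each direction. The means were 42.4 ± 3.66 and 45.3 ± 5.17 (SD, n = 4, two-sided exact permutation p = 0.486), and the log2 fold change was −0.25 ± 0.140 (SE, edgeR adjusted p = 0.499). It was −0.09 with the length trend removed and −0.09 in limma on log2(FPKM + 1).

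Klk7, the chymotrypsin-like protease that KLK5 activates, had FPKM of 335, 391, 323 and 268 in cKO replicates 1 to 4, and 349.6, 491, 347 and 477 in control replicates 1 to 4. Control replicates 2 and 4 were above all other mice, and the remaining controls lay inside the range of the cKO mice, while the value was lower in 4 of 4 same-numbered pairs. The means were 329.5 ± 50.6 and 416 ± 78.5 (SD, n = 4, two-sided exact permutation p = 0.143). The log2 fold change of −0.54 ± 0.252 (SE, edgeR adjusted p = 0.498) was −0.29 without control replicate 2.

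Klk14, a trypsin-like protease activated by KLK5, had estimated counts of 2.86, 3.24, 1.14 and 1.18 in cKO replicates 1 to 4 and 6.26, 7.94, 5.39 and 4.44 in control replicates 1 to 4. All 4 cKO mice lay below all 4 controls, but with so few reads that 3 of these 4 mice had at most 3 counts. FPKM was 0.085 ± 0.0465 and 0.255 ± 0.105 (SD, n = 4, two-sided exact permutation p = 0.0286, the smallest that 70 assignments of the mice allow). These assignments ignore the replicate numbers, and within same-numbered pairs no exact permutation p can fall below 0.125. Summed over mice, 8 counts stood against 24, a ratio per total count of 0.313 (95% exact interval 0.122 to 0.720, counting error only). The edgeR unadjusted p was 0.0150 (adjusted p = 0.498), and without control replicate 2, the highest mouse, the unadjusted p was 0.0418 (edgeR adjusted p = 0.638). The fitted fold of so low a gene depends on the prior count. In addition, 21% of the 50-base stretches of its transcripts are shared with other genes, so its counts are uncertain. Klk14 passed the filters on counts and on mean FPKM only through the controls, so nothing is read from these p-values or the interval.

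Klk6, a trypsin-like kallikrein, differed most between the genotypes among the abundant members in the edgeR fit on all 8 mice. With the length trend removed Spink5 differed more (log2 fold change −0.92 against −0.84). The FPKM of Klk6 was 94.4, 66.8, 74.5 and 75.8 in cKO replicates 1 to 4 and 132, 198, 92.3 and 146 in control replicates 1 to 4. Only cKO replicate 1 reached above a control, replicate 3, and the value was lower in 4 of 4 same-numbered pairs. The means were 77.8 ± 11.7 and 142 ± 43.8 (SD, n = 4), so that the FPKM was 45.2% lower in cKO mice, with a two-sided exact permutation p of 0.0571. The log2 fold change was −1.09 ± 0.307 (SE), with an unadjusted p of 0.00594 that ranked 120 of all genes and an edgeR adjusted p of 0.498. Control replicate 2 was the highest of the 8 mice. Without it the log2 fold change was −0.71 (unadjusted p = 0.00321), and with the length trend removed it was −0.84 (unadjusted p = 0.00826), and edgeR made 0 adjusted calls among the 10 in either fit. In CPM scaled by TMM, Klk6 did not overlap between the genotypes (two-sided exact permutation p = 0.0286, n = 4), with nearest values of 107.5 and 107.9. With the length trend removed the CPM overlapped, reaching 117.0 in cKO mice against 101.5 in the lowest control (two-sided exact permutation p = 0.0571). The share of all genes without overlap in CPM was not computed. The summed FPKM of the neutrophil genes, given above, was also lower in cKO mice, with 1 cKO mouse above 1 control, and control replicates 2 and 4 were the highest of all 8 for both Klk6 and the neutrophil sum (911.6 and 940.4).

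Klk8, also called neuropsin, had FPKM of 55.1, 75.2, 59.9 and 48.0 in cKO replicates 1 to 4 and 59.9, 92.4, 68.0 and 59.5 in control replicates 1 to 4. Replicate 2 was the highest mouse in both genotypes, and the groups overlapped, although the value was lower in 4 of 4 same-numbered pairs. The means were 59.6 ± 11.5 and 70 ± 15.5 (SD, n = 4, two-sided exact permutation p = 0.400), and the log2 fold change of −0.45 ± 0.274 (SE, edgeR adjusted p = 0.501) was −0.11 without control replicate 2. In its transcripts 21.7% of the 50-base stretches are shared, on either strand, with 2310002F09Rik, an antisense neighbour, and the strand setting of the counting is not given in the sources used here, so reads from the 2 genes may not be told apart.

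Klk10 had FPKM of 99.1, 112.8, 100.1 and 88.6 in cKO replicates 1 to 4 and 116, 98.7, 104.5 and 93.4 in control replicates 1 to 4. The ranges overlapped almost fully. The means were 100.2 ± 9.92 and 103.2 ± 9.84 (SD, n = 4, two-sided exact permutation p = 0.686), with a log2 fold change of −0.22 ± 0.164 (SE, edgeR adjusted p = 0.522) that was −0.11 without control replicate 2.

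Klk11, a trypsin-like kallikrein, was the steadiest member, at 13.9 to 16 FPKM in cKO mice and 13.2 to 15.8 in controls. Its means were 14.6 ± 0.998 and 14.1 ± 1.14 (SD, n = 4, two-sided exact permutation p = 0.514), with a log2 fold change of −0.11 ± 0.152 (SE, edgeR adjusted p = 0.689) that was −0.01 without control replicate 2. Klk13 had FPKM of 1.86, 5.94, 3.07 and 2.05 in cKO replicates 1 to 4 and 2.84, 2.46, 2.29 and 4.2 in control replicates 1 to 4. The highest value was in cKO replicate 2, the mouse with the high hair follicle genes, and the groups overlapped. The log2 fold change of Klk13 was −0.01 ± 0.413 (SE, edgeR adjusted p = 0.993), and it was −0.51 without that mouse.

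Spink5, which codes for the inhibitor LEKTI, lies on chromosome 18 from 43959545 to 44022487. It had FPKM of 233, 165, 152 and 157 in cKO replicates 1 to 4 and 215, 171, 206 and 199.8 in control replicates 1 to 4. cKO replicate 1 was the highest of all 8 mice and the other 3 of that genotype were the lowest of all. The means were 176.7 ± 38.1 and 197.9 ± 19.3 (SD, n = 4, two-sided exact permutation p = 0.371), and the log2 fold change was −0.32 ± 0.196 (SE, edgeR adjusted p = 0.501). Without cKO replicate 1 it was −0.50 (edgeR unadjusted p = 0.0223, adjusted p = 0.605), with no overlap in FPKM. Removal of the transcript length trend gave −0.92 (edgeR unadjusted p = 0.0375, adjusted p = 0.496). After that removal control replicate 2 stood at 2492 CPM for Spink5 against 802 to 986 in the other controls and 564 to 944 in cKO mice, and the two-sided exact permutation p was 0.0857.

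St14, which codes for matriptase, lies on chromosome 9 from 31088590 to 31133616, on the plus strand in the deposited table and on the minus strand in GENCODE vM21. It was the only member higher in cKO mice in every fit run here, at FPKM of 16.9, 23.1, 16.1 and 16.5 in replicates 1 to 4 against 15.6, 6.41, 11.5 and 14.3 in control replicates 1 to 4. Every cKO mouse was above every control, by 16.1 against 15.6 at the nearest. The means were 18.1 ± 3.32 and 11.9 ± 4.08 (SD, n = 4), or 51.8% higher, with the smallest two-sided exact permutation p of 0.0286. The log2 fold change was 0.50 ± 0.213 (SE, edgeR unadjusted p = 0.0419, adjusted p = 0.498). Control replicate 2, low for long transcripts, had the lowest value, and cKO replicate 2, with the high hair follicle genes, the highest. Without the first the log2 fold change was 0.36 (edgeR unadjusted p = 0.0531, adjusted p = 0.638), and without the second it was 0.36 (edgeR unadjusted p = 0.131, adjusted p = 0.569). When replicate numbers were used as a block the unadjusted p was 0.0766, and with the length trend removed the log2 fold change was 0.29 (edgeR unadjusted p = 0.10, adjusted p = 0.496) and the groups overlapped.

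**Figure D3:**
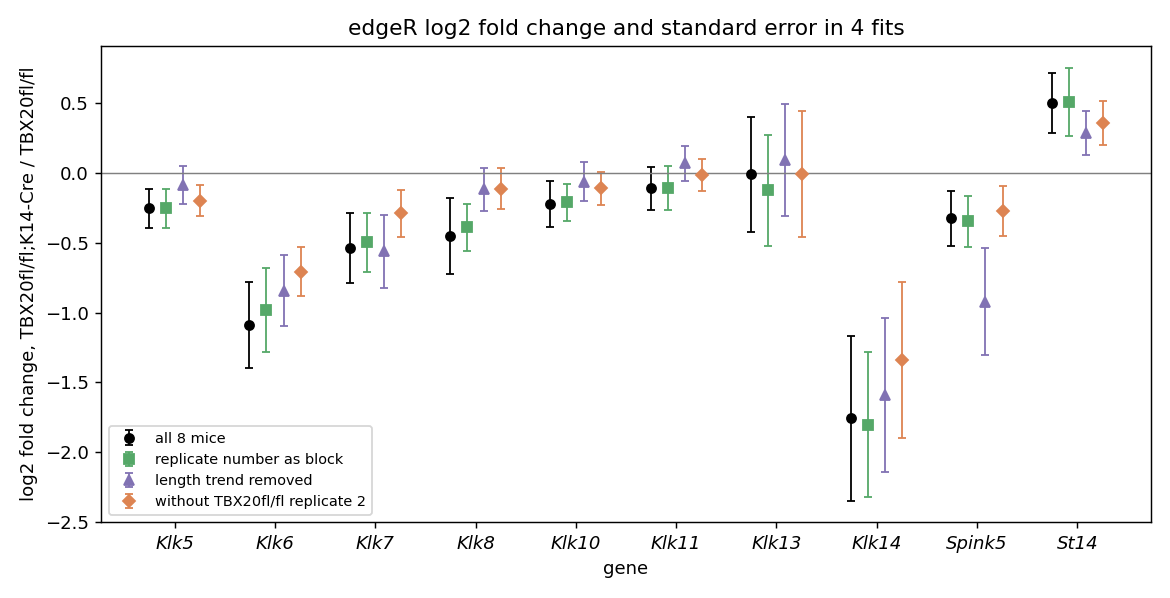
The edgeR log2 fold change (points) and its standard error (bars) of each gene in 4 fits, on all 8 mice, with the replicate number as a block, with the transcript length trend of each mouse removed, and without control replicate 2. Klk6 stays between −1.09 and −0.71, Spink5 is lowest with the length trend removed (−0.92), and St14 stays above 0 (0.29 to 0.51).

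The make-up of kallikrein transcript was alike across mice in its main component. Klk7 held 48.1% to 56.8% of the summed FPKM of the 8 kallikreins in every mouse. The share of Klk6 was 12.5% ± 2.36 in cKO mice and 17.6% ± 3.07 in controls (SD, n = 4), with cKO replicates 1 and 4 above control replicate 3. Klk11 held 2.07% to 2.61% in cKO mice and 1.44% to 1.96% in controls, without overlap, although its FPKM overlapped almost fully and the sum it is divided by was lower on average in cKO mice. The summed kallikrein FPKM was 646.9, 707, 621 and 535 in cKO replicates 1 to 4 and 727, 936, 673 and 841 in control replicates 1 to 4. Only cKO replicate 2 exceeded a control. The FPKM of all genes also differed in total, at 521852 to 575080 in cKO mice and 547763, 772536, 605508 and 560163 in control replicates 1 to 4. The part of this in the kallikrein sums was not tested. Set against the inhibitor, the summed kallikrein FPKM was 2.77, 4.29, 4.08 and 3.42 times the FPKM of Spink5 in cKO replicates 1 to 4. In control replicates 1 to 4 it was 3.37, 5.49, 3.28 and 4.21 times. The ratios overlapped, with means of 3.64 ± 0.686 and 4.09 ± 1.02 (SD, n = 4). The control mean was 3.62 without replicate 2, which had the highest ratio. With the length trend removed the direction turned, to mean ratios of 4.36 in cKO mice and 3.47 in controls. Spink5 in control replicate 2 then stood at 2492 CPM against 802 to 986 in the other controls, and the corrected ratio without that mouse was not computed.

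**Figure D4:**
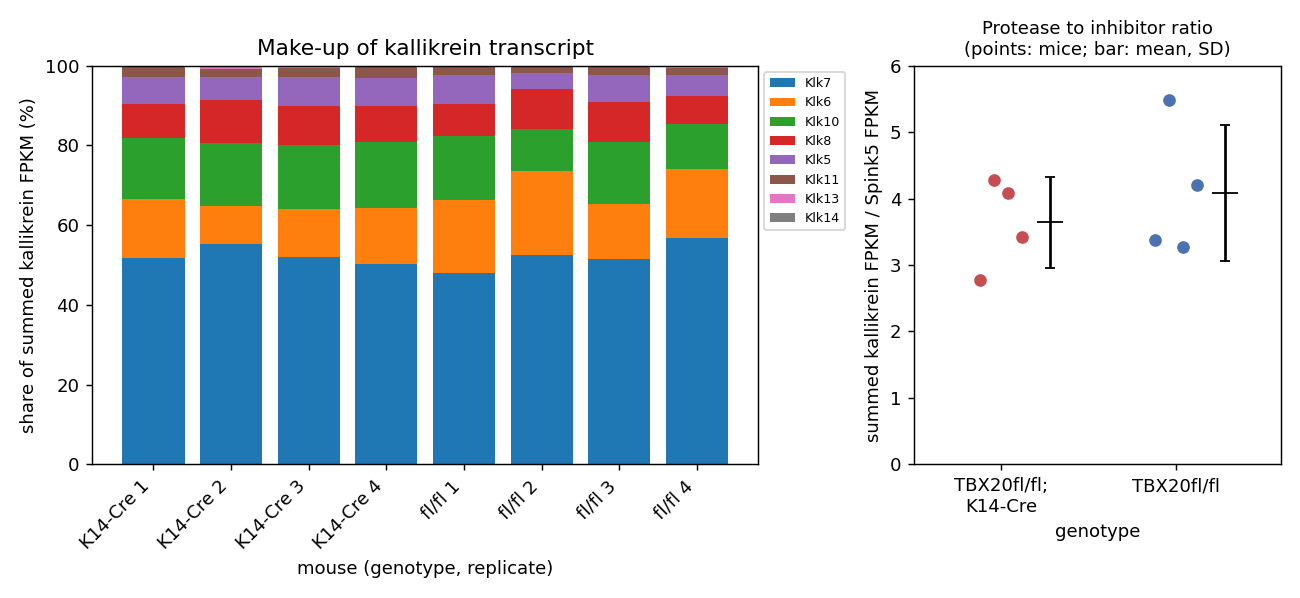
Left, share of each kallikrein in the summed kallikrein FPKM (%, stacked bars) in each mouse, where Klk7 makes up 48.1% to 56.8%. Right, summed kallikrein FPKM over Spink5 FPKM in each mouse (points) by genotype, with the mean and SD (black), where the mice range from 2.77 to 5.49 and the genotypes overlap.

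Other genes of the pathway were counted from lists, and 0 of them had an edgeR adjusted p under 0.05. Counts at an unadjusted p under 0.05 stand beside 5.91% of all genes lower and 2.45% higher, and genes without overlap in FPKM beside 1.92% lower and 5.45% higher. Of 9 other kallikreins in the table, 5 had enough counts to be tested, with a median log2 fold change of −0.35, and 1 had an unadjusted p under 0.05. This was Klk12, at an FPKM of 1.65 ± 0.448 and 3.25 ± 1.02 (SD, n = 4) without overlap between the genotypes (log2 fold change −1.18, edgeR adjusted p = 0.498). Klk9 at 13.2 ± 1.19 and 14.7 ± 4.24 and Klk1 at 0.470 ± 0.162 and 0.545 ± 0.316 overlapped. Among 8 other inhibitors of skin proteases, 7 were tested, with a median of −0.63. Cst6, the cystatin M/E gene, had 253.8 ± 39.3 and 333 ± 107.0 FPKM, Spint2, which codes for an inhibitor of matriptase, 60.1 ± 4.61 and 52.7 ± 6, and Serpina12 34.7 ± 9.01 and 35.7 ± 7.15, all with overlap. Spint1, which codes for another inhibitor of matriptase, was higher in every cKO mouse (14.2 to 20.1 FPKM) than in every control (9.23 to 14.2), with nearest values of 14.19 and 14.18 (log2 fold change 0.28, edgeR unadjusted p = 0.101, adjusted p = 0.498). The 1 inhibitor with an unadjusted p under 0.05 was Slpi, the leukocyte protease inhibitor gene, at 8.76 ± 4.84 and 21.2 ± 9.21 FPKM (log2 fold change −1.48, edgeR adjusted p = 0.498). Its groups overlapped (15.6 in cKO replicate 4 against 11.2 in control replicate 3). Control replicates 4 and 2 were the highest (31.2 and 26.4), as for the neutrophil sum, and a link was not tested.

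In the matriptase cascade, all 6 genes were tested, with a median log2 fold change of −0.19, and 1 was lower and 1 higher at an unadjusted p under 0.05. The higher was F2rl1, the PAR2 gene, at 8.84 ± 1.25 FPKM in cKO mice and 6.29 ± 1.27 in controls (SD, n = 4), without overlap (log2 fold change 0.35, edgeR adjusted p = 0.498). The nearest values were 7.56 and 7.46, and the lowest was 4.52 in control replicate 2. The lower was Tmprss11a, with 2 to 10 counts per mouse. Prss8, the prostasin gene, had 26.3 ± 4.56 and 26.6 ± 7.38 FPKM, Tmprss13 15.6 ± 1.05 and 13.5 ± 2.79, and Tmprss11e 14.9 ± 4.02 and 14.5 ± 2.30. Of 8 genes for corneodesmosome and desmosome proteins, 0 had an unadjusted p under 0.05 in edgeR, and the median log2 fold change was 0.11. The corneodesmosin gene Cdsn had 185 ± 17.4 and 156 ± 45.6 FPKM, Dsg1a, a desmoglein 1 gene, 149.9 ± 19.0 and 136 ± 30.7, and the desmoplakin gene Dsp 135 ± 12.7 and 94.8 ± 53.3, the last with 27.8 in control replicate 2. Of 6 other proteases of the cornified layer, 0 had an unadjusted p under 0.05 in edgeR, with a median of −0.26. Asprv1, the skin aspartic protease gene, had 606 ± 63.2 and 709 ± 141.5 FPKM, Ctsd, the cathepsin D gene, 691 ± 104.0 and 667 ± 58.9, and Ctsl, the cathepsin L gene, 343 ± 37.8 and 414 ± 87.3.

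For Klk5, Klk7 and Spink5, the genes most like each were sought among 13263 genes by Pearson's r of log2(FPKM + 1) over the 8 mice, which share genotype and library effects, as a description. Nearest to Klk7 were Zfp948 (r = 0.975), Lce1g (r = 0.963), Zfp946 (r = 0.945), Uchl3 (r = 0.935) and Ntpcr (r = 0.930). Lce1g codes for a late cornified envelope protein. Nearest to Klk5 were Adcyap1r1 (r = 0.905), Vav3 (r = 0.896), Espn (r = 0.885), LOC115489129 (r = 0.862) and Bscl2 (r = 0.859). Nearest to Spink5 were Rfk (r = 0.933), Hand2 (r = 0.930), Zfp120 (r = 0.920), Gm11992 (r = 0.893) and Usp15 (r = 0.878). None of these 15 genes was a member or on a list of the pathway.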

How the data were processed

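RNA was sequenced with 50-base reads from skin of 4 mice per genotype. Reads were filtered (SOAPnuke) and aligned (HISAT) by the authors, whose deposited table gives estimated counts (expected counts, not normalized; the counting program is not given in the sources used here) and FPKM values, which the authors made with the Dr. Tom platform. Another 16 per-mouse columns of normalized values and the authors' columns of group means and comparisons (log2 fold changes, p-values and q-values) were not used. Of counts above 0, 69.0% were not whole (tolerance 0.005).

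Counts were rounded and scaled by TMM, and genes whose counts summed to 10 or more were compared by quasi-likelihood tests (edgeR 4.0.16, R 4.3.3), with Benjamini-Hochberg adjustment over all genes tested. FPKM was compared by two-sided exact permutation of the difference in means over 70 assignments (scipy 1.17.1), which ignore the replicate numbers. Within same-numbered pairs the smallest exact permutation p is 0.125. Overlap was counted where mean FPKM reached 0.1. Detection was taken as 3 counts, or 0.151 to 0.187 CPM, which covers counting error only. Alternatives used DESeq2 1.42.0, limma 3.58.1 on log2(FPKM + 1), no low-count filter, a lowess transcript length trend (span 0.3) as an offset, and leaving out each mouse. limma on FPKM with the replicate block was added after the data were seen. Deviations of same-numbered mice correlated at 0.218 to 0.309, above the threshold of 0.1 used here for pairing. Those of other pairs correlated at −0.443 to 0.367, the highest being cKO replicate 4 with control replicate 1. Some other pairs thus also passed the threshold, which does not single out same-numbered mice. The main edgeR fit and its shares of all genes did not use the replicate numbers. The labels state no shared litter or batch. Replicates are separate mice by their labels. The study's methods name littermates as controls for behaviour testing, and a K14-Cre line and a floxed line of different C57BL/6 substrains as the parents, but which mice shared a litter is not given.

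The members, lists and tests were chosen with earlier results of these data known. Named are all 10 members, the 3 most abundant genes of each list, the 5 genes most like Klk5, Klk7 and Spink5, and, chosen after their values were seen, Slpi, Spint1, F2rl1 and Tmprss11a.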

Additional observations from a re-analysis of the deposited data

Results flagged for a closer look

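Among 22 groups of 4 values (FPKM of the 10 genes and the ratio of summed kallikreins to Spink5, in each genotype), 2 held a mouse far from the other 3 by Dixon's criterion, where chance alone flags about 1 in 20. Spink5 was at 233 FPKM in cKO replicate 1 and at 152 to 165 in the others. St14 was at 23.1 FPKM in cKO replicate 2 and at 16.1 to 16.9 in the others. The fits without these mice are given with each gene above.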

How the results depend on the processing

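Under all 18 alternatives, 0 of the 10 genes and 0 of the pathway genes had an adjusted p under 0.05. The log2 fold changes ranged from −0.31 to −0.09 for Klk5, −1.27 to −0.71 for Klk6, −0.66 to −0.29 for Klk7, −0.58 to −0.11 for Klk8, −0.31 to −0.04 for Klk10, −0.92 to −0.18 for Spink5 and 0.27 to 0.66 for St14, and Klk14 stayed below 0. With the replicate block, 2 of the 10 (Klk6 and Klk14, the latter tested only through its counts in controls) in place of 3 had an unadjusted p under 0.05, also with limma on FPKM (2), and 1723 genes in place of 1431 did overall. The block changed no adjusted call. With limma on FPKM the median of all genes moved to 0.12, or 0.18 with a pseudocount of 0.1. The log2 fold change of Klk11 reversed to 0.0705 with the length trend removed (0.0691 with the replicate block added) and to 0.0463 in limma (0.0492 with a pseudocount of 0.1, 0.0463 without a filter or with the replicate block). That of Klk13 reversed to 0.0928 with the length trend removed (0.0067 with the replicate block added) and to 0.0291 in limma (0.0152 with a pseudocount of 0.1, 0.0291 without a filter or with the replicate block), and ranged from −0.51 to 0.24 when each mouse was left out. Genes without overlap were 2 in FPKM (Klk14 and St14), 3 in TMM-scaled CPM (Klk6, Klk14 and St14) and 1 in CPM with the length trend removed (Klk14). The exact permutation test at p under 0.05 gave the same genes in each. Leaving out each mouse gave 2 to 4 genes without overlap and 2 to 4 with an unadjusted p under 0.05, while the share of all genes at that p ran from 4.84% (without cKO replicate 3) to 14.1% (without control replicate 1, where 4 members were counted). The share of all genes without overlap was computed only for FPKM of all 8 mice, so nothing is read from the overlap counts of the other settings. The difference in the ratio of kallikreins to Spink5 (cKO minus control) of −0.44 reversed to 0.894 with the length trend removed and ranged from −0.71 to 0.022 without each mouse, being above 0 without control replicate 2. The cause was not tested. Depth limits Klk14 and Tbx20, at under 8 counts per mouse.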
